A study of Homo sapiens with 4 samples.

Results

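YAP1, WWTR1, the 4 TEAD genes and 4 of their best known target genes were followed in MDA-MB-231, a human cell line that was derived from a triple-negative breast tumour and has a mesenchymal character. The 10 genes were taken by name, as the rows of the deposited gene count table whose Ensembl identifiers map to YAP1, WWTR1, TEAD1, TEAD2, TEAD3, TEAD4, CCN1, CCN2, ANKRD1 and AMOTL2. All 10 were found among 20263 genes, and all 10 passed the filter on low counts. Per the labels, the culture medium held 10% serum, and the cells were kept for 24 h with the solvent control, named DMSO, or with the compound, named Neoribocic in the sample titles and Rib_CA in the treatment protocol. Both names were read as the same treatment. Each group had 2 messenger RNA libraries; the concentration of the compound is not stated in the sources used. Whether a group's 2 libraries are separate cultures is not stated either, so the p-values reflect the spread between these libraries alone, and that spread may be technical.

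YAP and its paralog TAZ, the product of WWTR1, are transcriptional coactivators at the end of the Hippo pathway. They do not bind DNA themselves, and reach promoters and enhancers through the TEAD proteins, which recognise a short motif with the core GGAATG. When the Hippo kinases MST and LATS are active, YAP and TAZ are phosphorylated and kept out of the nucleus, so that messenger RNA levels of YAP1 and WWTR1 do not report their activity. The line carries an inactivating mutation of NF2, an upstream Hippo activator, and is widely used to study YAP.

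The promoters of CCN2, ANKRD1 and YAP1 are shown because in each of them a TEAD core motif lies before the first GENCODE exon base. In the RefSeq promoter table (GRCh38.p14), 7 of the 10 genes had an entry; TEAD1, TEAD4 and CCN1 had none. The 250 bases before each start site were searched for GGAATG and, for the other strand, CATTCC. CCN2 held 3 matches, beginning 169, 104 and 95 bases before the start. ANKRD1 held 2, beginning 220 and 128 bases before it, and YAP1 held 1 at 162. AMOTL2 has 2 start sites in the table, and the window of the second held 1 match on the other strand, beginning 69 bases before it. The ANKRD1 match at 128 and the AMOTL2 match lie in exons of GENCODE 29, which places exon bases upstream of these RefSeq starts. Neither match is printed below. No match lay in the windows of WWTR1, TEAD2 or TEAD3, which says only that these letters are not in those windows. Over all 35116 windows of the same length, 11.9% held at least 1 match, 0.94% held 2 or more, and 0.0826% held 3 or more. The pattern TGANTCA, a loose form of the AP-1 element that allows any middle base, reads the same on both strands. It had 1 match in the ANKRD1 window, with the letters TGATTCA, beginning 195 bases before the start and not overlapping GGAATG. The last base of this match is an exon base and is not printed below. The other windows of these genes held 0, against 6.57% of all windows with a match to this loose pattern. A match is a description of the sequence and not a measurement of binding. The sequences run 5′ to 3′ on the strand of each gene, with the core motif in capitals, and stop where the first GENCODE exon base begins, which leaves 249 bases for CCN2, 61 for ANKRD1 and 250 for YAP1.
CCN2, chr6:131951374-131951622, minus strand: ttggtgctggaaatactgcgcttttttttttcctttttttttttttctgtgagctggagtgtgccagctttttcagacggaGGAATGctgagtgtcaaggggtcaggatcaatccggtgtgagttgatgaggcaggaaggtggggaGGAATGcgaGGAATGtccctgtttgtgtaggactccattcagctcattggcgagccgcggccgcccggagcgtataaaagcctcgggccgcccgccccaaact
ANKRD1, chr10:90921277-90921337, minus strand: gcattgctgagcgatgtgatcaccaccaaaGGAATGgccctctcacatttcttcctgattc
YAP1, chr11:102110197-102110446, plus strand: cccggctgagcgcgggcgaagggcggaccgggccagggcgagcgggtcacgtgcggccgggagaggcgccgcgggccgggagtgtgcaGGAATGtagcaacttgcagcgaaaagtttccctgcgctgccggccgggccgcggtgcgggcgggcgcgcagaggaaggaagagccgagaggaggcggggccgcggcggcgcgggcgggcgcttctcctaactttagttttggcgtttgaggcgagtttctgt

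**Figure D1:**
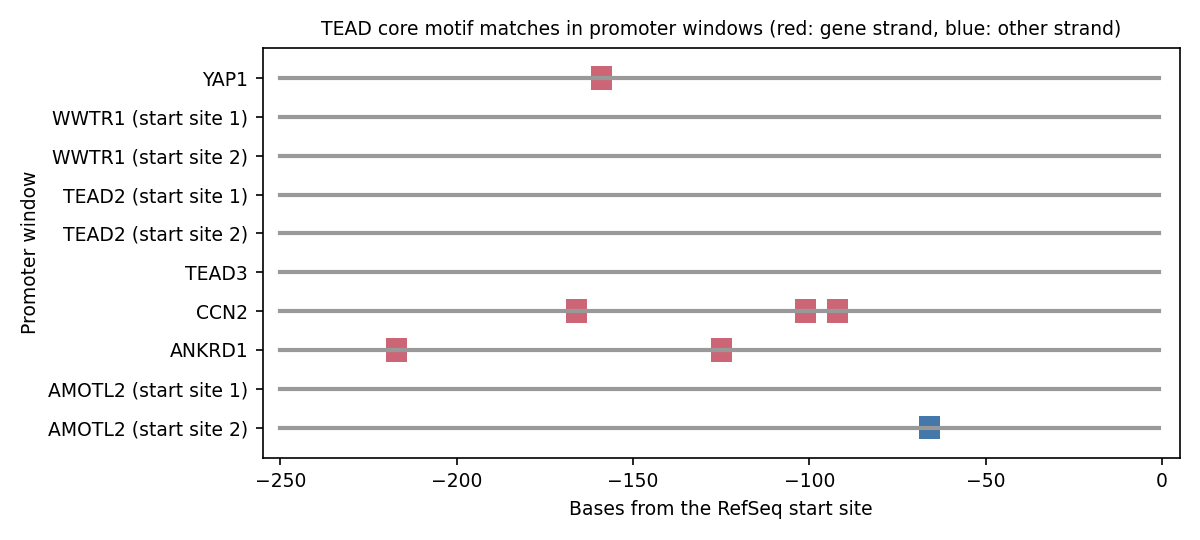
Matches of the TEAD core motif in the 250 bases before each RefSeq start site; the horizontal axis is the distance from the start in bases and each line is 1 window. CCN2 has 3 matches, ANKRD1 2, YAP1 1, and the second AMOTL2 window 1 on the other strand.

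Of the 18 further YAP/TAZ target genes on a list of widely used targets, 13 were in the promoter table. Of these, 5 held the core motif in a window (AXL, FOXF2, NUAK2, PTPN14 and TGFB2, named for that match alone). A gene was counted if any of its windows held a match, whereas the 11.9% given above is a share of single windows. No share per gene over all genes was computed, so whether these targets hold the motif more often was not tested.

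The libraries held 34774542 to 43014212 counts. Genes of the mitochondrial genome took 21.7% of the counts in DMSO replicate 2 and 5.76% to 8.68% in the other 3; with these genes left out, the same 5 of the 10 genes were called. Levels are given as CPM, counts scaled to a common library size, with factors from the trimmed mean of M values (TMM). Changes are log2 fold changes, Neoribocic minus DMSO, and were tested in edgeR by quasi-likelihood, with p adjusted by Benjamini-Hochberg over 13879 genes. A gene is said to have risen or fallen only where its adjusted p was below 0.05. Across 13862 genes the log2 fold change went with transcript length (Spearman rho -0.40) and GC content (rho 0.45), as a description across genes, which are not independent. Changes of the genes named below are therefore also given after a smooth trend on both properties was removed from every library, called the correction. VIM, CAV1, CD44, AXL and MSN, markers of the line, were at 220.3 CPM or more in every library, while ZEB1 did not exceed 64.0 and S100A4 42.5 CPM. The summed level of 11 markers of luminal, immune, endothelial and fibroblast cells was 21.4 and 33.3 CPM in DMSO and 15.6 and 18.9 CPM in Neoribocic. The highest of the 11 were GATA3 and COL1A1. GATA3 was at 9.53 and 21.8 CPM in DMSO and at 8.21 and 10.3 CPM in Neoribocic, and COL1A1 at 5.84 to 8.08 CPM. CD3E was at 0 in all 4 libraries and CDH1 at no more than 0.141 CPM. Because these are bulk samples, fewer cells with a transcript and less of it per cell cannot be told apart.

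With Neoribocic, the messenger RNAs of TEAD1 and TEAD4 and of the targets CCN2 and ANKRD1 fell, TEAD3 rose, and YAP1, WWTR1, TEAD2, CCN1 and AMOTL2 did not pass the threshold. That is 4 of 10 lower and 1 of 10 higher, where 21.3% of all genes tested were called lower and 19.1% higher. The median log2 fold change of the 10 was -0.42, against 0.01 over all genes tested. In 7 of the 10 both Neoribocic libraries lay below both DMSO libraries and in 2 above, where 37.3% and 37.8% of all genes did so. With the correction the same 5 genes kept their call and direction, with 19.3% of all genes then called lower and 16.5% higher, and the median of the 10 was -0.41. Of the 4 targets, CCN2 and ANKRD1 passed the threshold, AMOTL2 was lower at -0.20 without passing it, and CCN1 was at 0.48 without passing it.

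**Figure D2:**
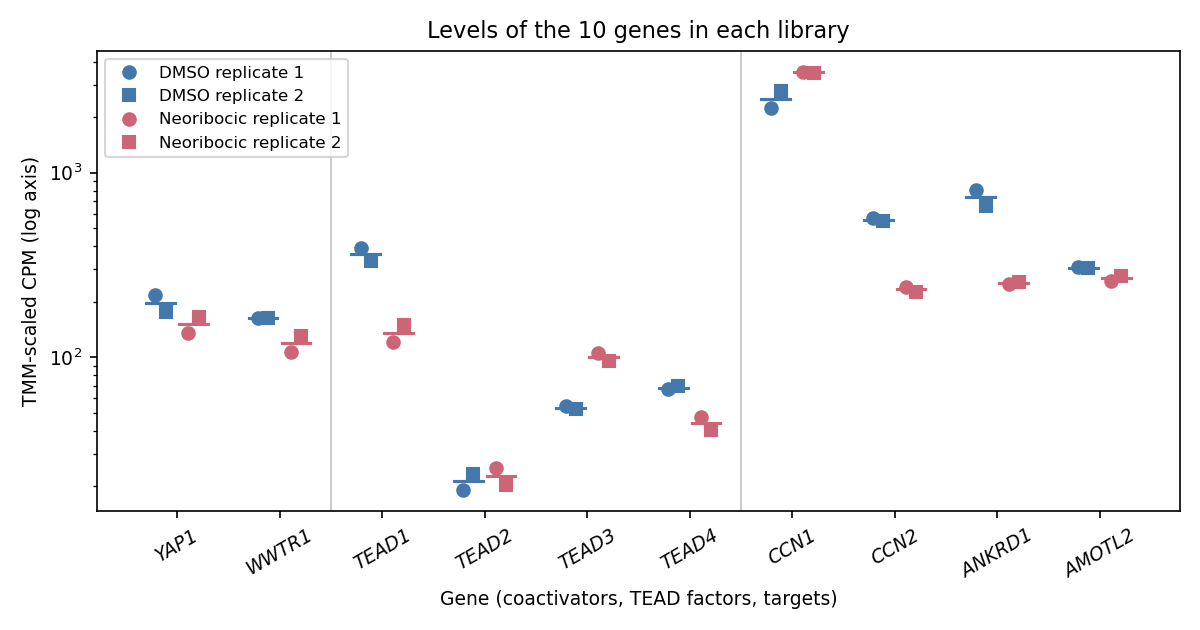
TMM-scaled CPM of the 10 genes on a log axis; each point is 1 library (circle replicate 1, square replicate 2), and short lines are group means of 2 libraries. TEAD1, TEAD4, CCN2 and ANKRD1 lie lower in both Neoribocic libraries and TEAD3 and CCN1 higher, while the groups overlap for TEAD2.

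**Figure D3:**
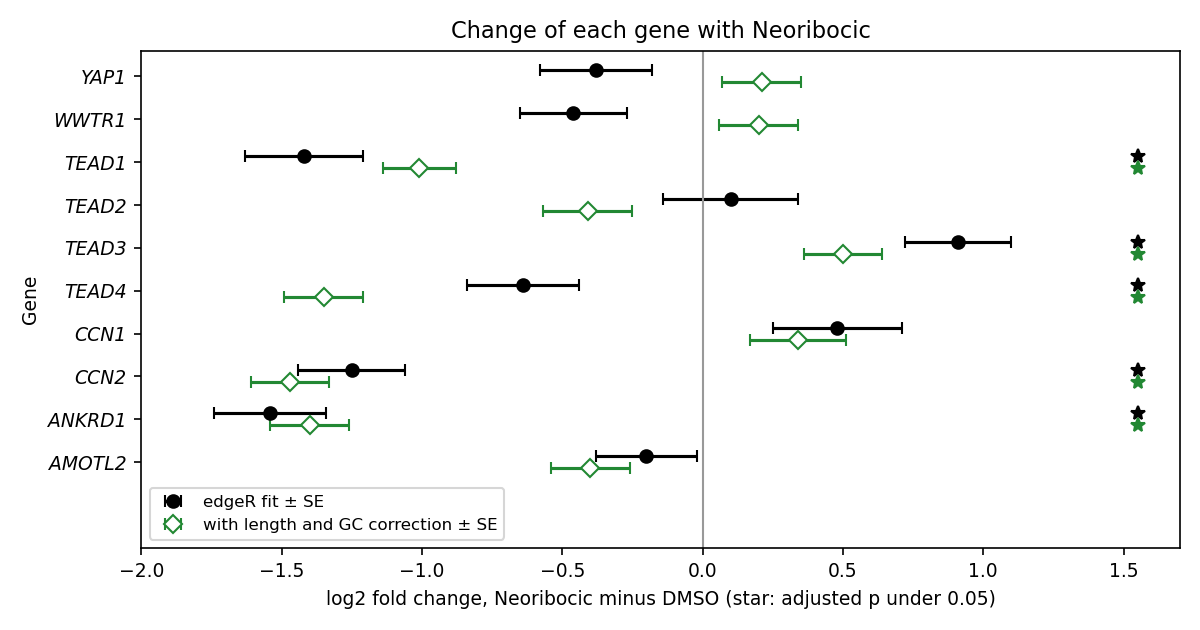
Log2 fold change of each gene, Neoribocic minus DMSO, with its standard error, from the uncorrected edgeR fit (filled circles) and after the length and GC correction (open diamonds); stars mark adjusted p under 0.05. YAP1 and WWTR1 cross from -0.38 and -0.46 to 0.21 and 0.20, TEAD2 from 0.10 to -0.41, and the other 7 genes keep their side.

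The coactivators come first. YAP1 (ENSG00000137693), on chromosome 11 from 102110461 to 102233423 in GENCODE 29 (GRCh38), stood at 217 and 176 CPM in DMSO replicates 1 and 2 and at 136 and 165 CPM in Neoribocic replicates 1 and 2. Both treated libraries were below both controls, but the gap between DMSO replicate 2 and Neoribocic replicate 2 was smaller than the distance between the 2 DMSO libraries. The log2 fold change was -0.38 ± 0.20 (SE), with a 95% interval of -0.85 to 0.09 and an edgeR adjusted p = 0.164. WWTR1 (ENSG00000018408), on chromosome 3, was at 164 and 163 CPM in DMSO and at 107 and 131 CPM in Neoribocic. The DMSO libraries nearly coincided and both treated libraries were lower, at -0.46 ± 0.19, with an edgeR adjusted p = 0.0907. The direction of neither gene was stable. With the correction YAP1 was at 0.21 and WWTR1 at 0.20 (edgeR adjusted p = 0.265 and 0.292). These transcripts are long, 5386 and 5030 bases for the principal ones. YAP1 was called in 0 of 17 refits under other settings and WWTR1 in 0 of 17. Of the exon bases of YAP1 9.97%, and of those of WWTR1 9.45%, overlap a gene on the opposite strand, whose reads cannot be told apart if strand was not used in counting. Per kilobase of principal transcript the 2 coactivators were near each other, and YAP1 made up 55.2% and 50.2% of their sum in DMSO and 54.2% and 54.0% in Neoribocic, so the groups overlapped in this share.

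The TEAD genes encode the DNA-binding partners, which share a conserved TEA domain and are thought to act in part redundantly. TEAD1 (ENSG00000187079), on chromosome 11 from 12674591 to 12944483, was at 392 and 331 CPM in DMSO and at 120.2 and 149.8 CPM in Neoribocic. The groups were far apart, the highest treated library lying below the lowest control by more than the spread within either. TEAD1 fell by 1.42 on the log2 scale (SE 0.21; edgeR adjusted p = 0.00176), and was called in 17 of 17 refits. The size depends on the transcript assumed. The principal transcript of TEAD1 is 3075 bases long and its longest annotated one 8477, and the corrected value was -1.01 with the former and -0.55 with the latter (edgeR adjusted p = 0.00483 and 0.0218).

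TEAD4 (ENSG00000197905), on chromosome 12, was at 67.3 and 69.6 CPM in DMSO and at 47.4 and 40.3 CPM in Neoribocic. Both treated libraries were lower. TEAD4 fell by 0.64 (SE 0.20; edgeR adjusted p = 0.0360), but the call did not survive leaving out any 1 library (edgeR adjusted p = 0.0877 and 0.114 without DMSO replicate 1 or 2, and 0.0878 and 0.156 without Neoribocic replicate 1 or 2). It was also lost with upper-quartile size factors (0.0693) and library totals (0.175), whereas the correction enlarged the change to -1.35. TEAD3 (ENSG00000007866), on chromosome 6, moved the other way. It was at 54.5 and 52.1 CPM in DMSO and at 105 and 95.4 CPM in Neoribocic, with close replicates and no overlap. TEAD3 rose by 0.91 (SE 0.19; edgeR adjusted p = 0.00773), or 0.50 with the correction. The call was lost without Neoribocic replicate 1 (0.0529) and with the correction based on longest transcripts (0.43, adjusted p = 0.0605). TEAD2 (ENSG00000074219), on chromosome 19, was the lowest of the 4 at 19 and 23.4 CPM in DMSO and 25.1 and 20.3 CPM in Neoribocic. Its groups overlapped, and at 0.10 ± 0.24 (edgeR adjusted p = 0.753; 95% interval -0.44 to 0.65) even the sign was unsettled, at -0.41 with the correction. Of its exon bases 10.7% overlap CD37 on the opposite strand.

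Before the correction, the make-up of the TEAD messenger RNA pool differed between the groups. Per kilobase of principal transcript, TEAD1 made up 65.6% and 60.8% of the summed TEAD level in DMSO and 34.4% and 42.8% in Neoribocic. TEAD3 made up 9.40% and 9.87% in DMSO and 30.8% and 28.1% in Neoribocic. TEAD2 made up 4.51% and 6.10% in DMSO and 10.2% and 8.25% in Neoribocic. TEAD4 had overlapping shares, 20.5% and 23.3% against 24.6% and 20.9%, although its own level fell, since the sum went from 194 and 177 to 114 and 114 CPM per kilobase. The ratio of TEAD1 to TEAD3 per kilobase went from 6.98 and 6.16 to 1.12 and 1.52. With 2 libraries a group the exact two-sided permutation test cannot go below p = 0.333, and it gave p = 0.333 for the TEAD1 share and for this ratio. When the merged length of all annotated exons was used instead, TEAD1 made up 41.4% and 36.7% in DMSO and 15.5% and 20.7% in Neoribocic, and TEAD3 19.4% and 19.5% against 45.6% and 44.5%. TEAD4 then made up 32.2% and 34.9% in DMSO and 27.7% and 25.2% in Neoribocic, lower without overlap, and TEAD2 6.92% and 8.93% against 11.2% and 9.69%. TEAD1 stood above TEAD3 in both Neoribocic libraries by the principal length and below it by the merged length. With both lengths, before the correction, the TEAD1 share was lower and the TEAD3 and TEAD2 shares were higher in both Neoribocic libraries. The TEAD4 share overlapped between the groups by the principal length and not by the merged length. Shares were not computed with the correction. The corrected changes of TEAD1, TEAD2, TEAD3 and TEAD4 were -1.01, -0.41, 0.50 and -1.35, or -0.55, -0.46, 0.43 and -1.44 based on longest transcripts. By both, TEAD4 fell more than TEAD1, so the shares above describe uncorrected levels only.

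**Figure D4:**
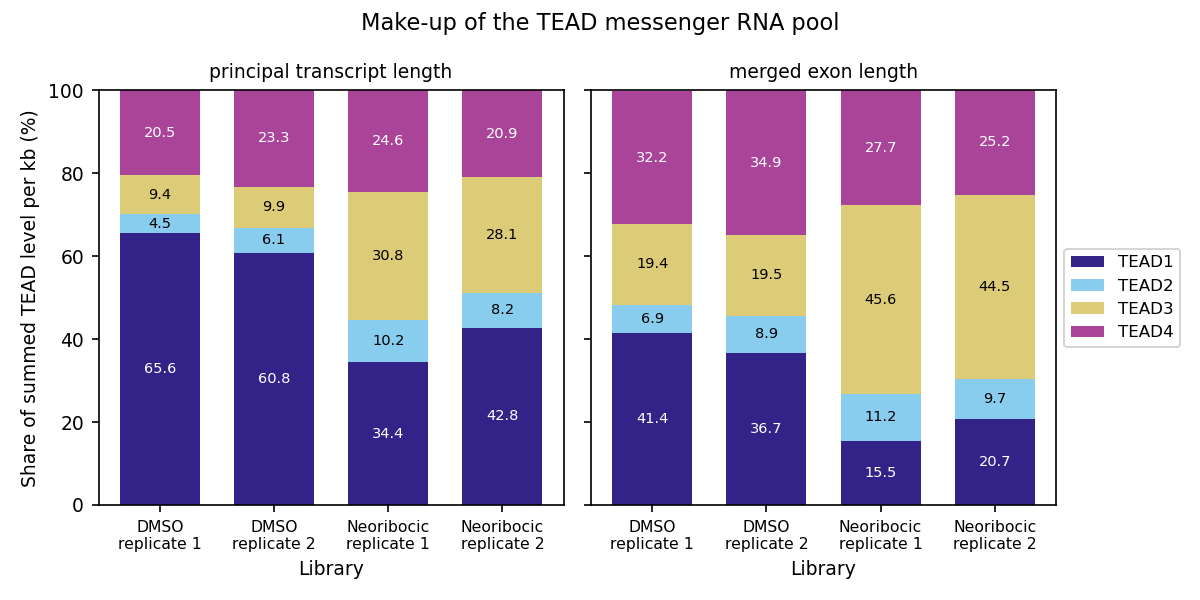
Share of each TEAD gene in the summed TEAD level per kilobase, in percent, for each of the 4 libraries, with principal transcript lengths (left) and merged exon lengths (right). TEAD1 has a smaller and TEAD3 a larger share in both Neoribocic libraries with either length, before the length and GC correction.

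Among the targets, CCN2 (ENSG00000118523), which encodes the matricellular protein CTGF, has the promoter with 3 core motifs shown above. It was at 566 and 547 CPM in DMSO and at 240.5 and 226 CPM in Neoribocic. Replicates nearly coincided within each group. CCN2 fell by 1.25 (SE 0.19; edgeR adjusted p = 0.00184), or -1.47 with the correction, a 2.39-fold lower level before it. ANKRD1 (ENSG00000148677), which encodes a nuclear and sarcomeric ankyrin repeat protein and is much used as a YAP reporter gene, has 2 core motifs in its window. It was at 807 and 663 CPM in DMSO and at 250.1 and 256 CPM in Neoribocic. The DMSO libraries were the more spread, yet both were far above the treated ones. ANKRD1 fell by 1.54 (SE 0.20; edgeR adjusted p = 0.00125), or -1.40 with the correction. Both CCN2 and ANKRD1 were called in 17 of 17 refits, with adjusted p up to 0.0190 and 0.0161. Of the exon bases of CCN2 8.34% overlap a gene on the opposite strand, and those of ANKRD1 overlap none.

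CCN1 (ENSG00000142871), on chromosome 1, encodes CYR61, a relative of CTGF, and is commonly read beside CCN2 as a YAP target. Its level did not follow CCN2. CCN1 was at 2236 and 2767 CPM in DMSO and at 3527 and 3463 CPM in Neoribocic. Both treated libraries were above both controls, and the DMSO libraries were the more spread. The log2 fold change was 0.48 ± 0.23, with a 95% interval of -0.04 to 1.01 and an edgeR adjusted p = 0.122, so no rise was called. The interval does not reach the change of CCN2 or ANKRD1. CCN1 passed in 1 of 17 refits, with library totals (0.67, edgeR adjusted p = 0.0337), and was at 0.34 with the correction. The ratio of CCN1 to CCN2 per kilobase was 4.04 and 5.17 in DMSO and 15.0 and 15.7 in Neoribocic, and that of CCN1 to ANKRD1 was 2.39 and 3.61 against 12.2 and 11.7. The exact permutation test gave p = 0.333 for each, the smallest it can give here.

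AMOTL2 (ENSG00000114019), on chromosome 3, encodes an angiomotin family scaffold that binds YAP and is itself a target, so it is placed in negative feedback. It was at 309 and 303 CPM in DMSO and at 259 and 274 CPM in Neoribocic. Both treated libraries were slightly lower, at -0.20 ± 0.18, with a 95% interval of -0.61 to 0.21 and an edgeR adjusted p = 0.396. It passed in 0 of 17 refits. The adjusted p nearest to the threshold came from the correction based on longest transcripts, at -0.46 (adjusted p = 0.0505).

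Ordered by level per kilobase of principal transcript in DMSO, CCN1 was highest at 1092 CPM per kilobase, followed by ANKRD1 at 371, CCN2 at 238, TEAD1 at 117, AMOTL2 at 68.2, TEAD4 at 40.5, YAP1 at 36.4, WWTR1 at 32.5, TEAD3 at 17.9 and TEAD2 at 9.78. Of the neighbours in this order, YAP1 and WWTR1, and TEAD4 and YAP1, were no further apart than the range of the DMSO libraries. The place of TEAD1 rests on its length, since merged exons put it at 35.1, below AMOTL2 at 51.2. In Neoribocic CCN1 was at 1526, ANKRD1 at 128, CCN2 at 99.7, AMOTL2 at 59.4 and TEAD1 at 43.9. There TEAD3 at 33.5 stood above YAP1 at 28.0, TEAD4 at 25.9 and WWTR1 at 23.7. With merged exons TEAD1 was at 13.1 in Neoribocic, below TEAD3 at 32.8, YAP1 at 23.9, TEAD4 at 19.3 and WWTR1 at 14.2.

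Other target genes moved mostly downward. Of 18 further YAP/TAZ targets, all tested, 13 fell, 1 rose and 4 did not pass, beside the 21.3% and 19.1% of all genes called lower and higher. Their median log2 fold change was -1.16, or -0.83 with the correction, by which 14 were lower and 1 higher. With the correction 19.3% of all genes were called lower and 16.5% higher. TGFB2, a TGF-beta ligand gene, was at 157 and 189.9 CPM in DMSO and at 18.1 and 23.3 CPM in Neoribocic, and fell by 3.07 (edgeR adjusted p = 4.80e-04; corrected -2.40). CCDC80, a secreted matrix protein gene, went from 97.7 and 116 to 28.4 and 29.9 CPM and fell by 1.87 (corrected -0.87). MYOF, the membrane protein myoferlin, went from 972 and 876 to 278 and 297 CPM and fell by 1.68 (corrected -1.14). The riser was GADD45A, a growth arrest and DNA damage gene that many stress pathways also induce, from 27.5 and 30.9 to 107 and 103 CPM, a rise of 1.84 ± 0.20 (corrected 1.43). It was called in 17 of 17 refits.

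The Hippo kinase core showed a mixed picture. Of 11 genes 5 fell, 0 rose and 6 did not pass, with a median of -0.16, where 21.3% of all genes fell and 19.1% rose. With the correction 3 were lower and 3 higher, with a median of 0.10, where 19.3% and 16.5% of all genes were. MAP4K4, a kinase that can phosphorylate LATS, was at 341 and 364 CPM in DMSO and at 122 and 139 CPM in Neoribocic, and fell by 1.43 (corrected -1.32). TAOK3, which activates MST kinases, fell by 1.21 (corrected -0.77), and its relative TAOK1 by 1.23, a call lost with the correction (-0.19, edgeR adjusted p = 0.285). The MST and LATS genes were singled out after their values were seen. STK3 (MST2) was at 25.8 and 20.1 CPM in DMSO and at 7.91 and 10.9 CPM in Neoribocic and fell by 1.28 (corrected -0.93), a call lost without Neoribocic replicate 1 (edgeR adjusted p = 0.0561). STK4 (MST1) was at -0.15 ± 0.20, with 68.9 and 67.1 CPM in DMSO and 56.8 and 65.5 CPM in Neoribocic, and with the correction it was higher at 0.54 (edgeR adjusted p = 0.0269). LATS1 fell by 0.76 (edgeR adjusted p = 0.0290), but was at 0.10 with the correction and missed the threshold when DMSO replicate 1 (0.0728), DMSO replicate 2 (0.0987) or Neoribocic replicate 1 (0.179) was dropped. LATS2, which is also on the target list, was at 0.16 ± 0.22 (corrected 0.30), with 51.5 and 66.1 CPM in DMSO and 60.3 and 70.9 CPM in Neoribocic, so the groups overlapped.

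Among 13 upstream regulators 8 fell, 1 rose and 4 did not pass, with a median of -0.73, against 21.3% and 19.1% of all genes. With the correction 4 of the 13 were lower and 1 higher, with a median of -0.24, against 19.3% and 16.5% of all genes. FAT1, a giant protocadherin that feeds into Hippo signalling, was at 701 and 608 CPM in DMSO and at 80.2 and 58.0 CPM in Neoribocic. It fell by 3.24 (SE 0.24), with a corrected value of -2.24. Its principal transcript has 14786 bases. FAT4, a related protocadherin, fell by 2.57 (corrected -1.51), and AMOTL1, a relative of AMOTL2, fell by 1.11 (corrected -0.53), from 172 and 181 to 79.5 and 84.0 CPM. NF2 encodes the Hippo activator merlin but, as stated above, carries an inactivating mutation in this line. Its messenger RNA rose from 10.4 and 10.6 to 17.8 and 16.6 CPM, by 0.71 ± 0.23 (edgeR adjusted p = 0.0358; corrected 0.68). That call was lost without any 1 of the 4 libraries (0.0883 to 0.155).

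STRIPAK, a phosphatase complex that dephosphorylates MST kinases, had 3 of 11 genes lower, 1 higher and 7 not called, with a median of -0.27 (corrected 0.15, 3 lower and 2 higher). The share lower is near the 21.3% of all genes, and 19.1% of all genes were higher. With the correction 19.3% of all genes were lower and 16.5% higher. STRN, a scaffold subunit, fell by 1.46 (corrected -0.55) and SLMAP, which recruits the complex to MST, by 1.20 (corrected -0.65). The SLMAP call was lost with the correction based on longest transcripts (-0.40, edgeR adjusted p = 0.073). PDCD10 fell by 0.67 (corrected -0.57) and the phosphatase scaffold PPP2R1A rose by 0.59 (corrected 0.62), and both calls were lost without any 1 library (edgeR adjusted p = 0.0715 to 0.133 and 0.0540 to 0.197). Of the 4 VGLL genes, whose products compete with YAP for TEAD, VGLL1 was at 0 counts in all libraries and was not tested. VGLL3 fell from 7.67 and 8.93 to 2.47 and 3.26 CPM, by 1.53 (corrected -0.57, edgeR adjusted p = 0.138), and lost its call without Neoribocic replicate 1 (0.0504). VGLL2 fell by 2.25 (corrected -2.65) from at most 1.89 CPM. The call of VGLL2 did not hold when DMSO replicate 2 (0.0699) or either Neoribocic library was dropped (0.0973 and 0.0507). VGLL4, the member most abundant here, had overlapping groups at 39.2 and 53.9 against 43.3 and 44.6 CPM.

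**Figure D5:**
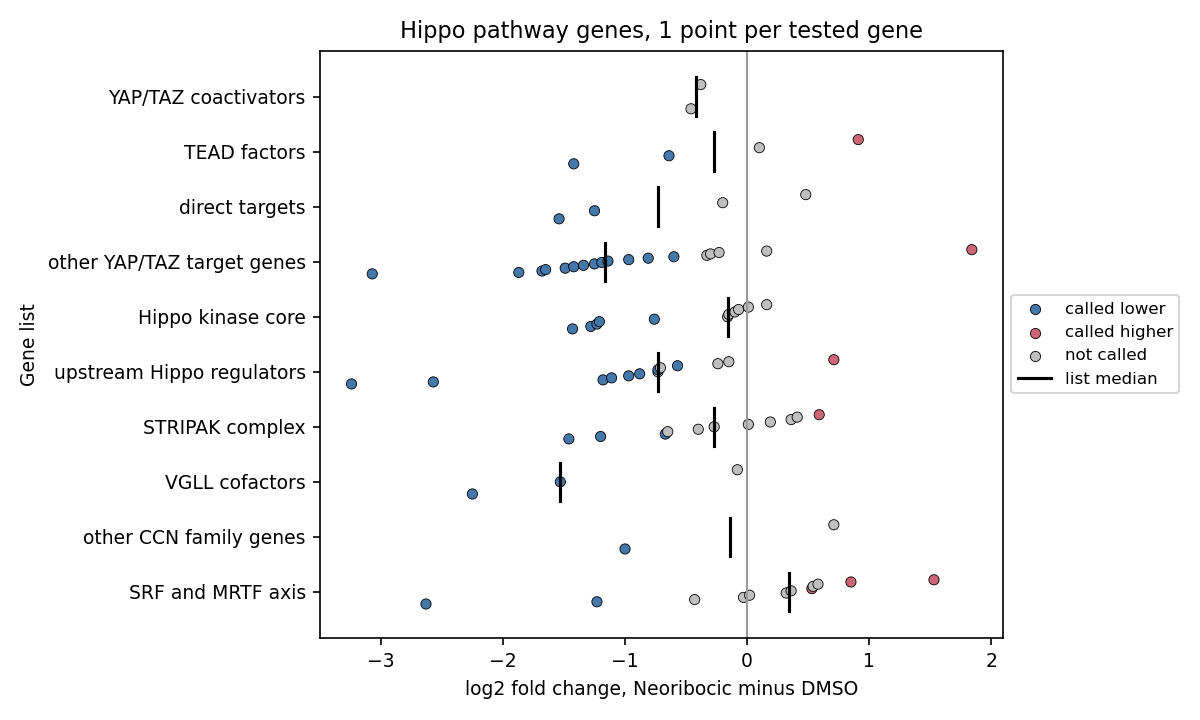
Log2 fold change, Neoribocic minus DMSO, of each tested gene in 10 lists of the pathway; blue points were called lower, red higher, grey were not called, and black lines are list medians. The further targets have a median of -1.16 and the kinase core one of -0.16.

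Of the 4 other CCN genes, CCN3 fell from 41.6 and 52.6 to 22.6 and 24.3 CPM, by 1.0 ± 0.23 (edgeR adjusted p = 0.00949; corrected -0.87). This call missed the threshold when DMSO replicate 2 (0.0543) or Neoribocic replicate 1 (0.0665) was dropped. CCN6 did not exceed 0.400 CPM and was not called, and CCN4 and CCN5 were too low to be tested. CCN1 and CCN2 can also be driven by SRF with the MRTF coactivators, which respond to actin. Of 13 genes of that axis 12 were tested, of which 3 rose, 2 fell and 7 did not pass, with a median of 0.34. These shares are near those of all genes, 19.1% higher and 21.3% lower. With the correction the median was -0.06, with 1 higher and 4 lower, where 16.5% of all genes were higher and 19.3% lower. MRTFB fell from 25.3 and 40.2 to 5.01 and 5.58 CPM, by 2.63 ± 0.29 (corrected -1.80). VCL, the focal adhesion gene vinculin, went from 367 and 601 to 198 and 216 CPM and fell by 1.23 (corrected -0.95). Its call was lost without Neoribocic replicate 1 (-1.16) and with the correction based on longest transcripts (-0.53, edgeR adjusted p = 0.161). ACTA2, smooth muscle actin, rose from 1.97 and 3.57 to 8.54 and 7.41 CPM, by 1.53 (corrected 1.07), a call lost without Neoribocic replicate 1 (0.0652), and 30.1% of its exon bases overlap genes on the opposite strand. TAGLN rose by 0.85 and CNN2 by 0.53, and neither passed with the correction (edgeR adjusted p = 0.200 and 0.989). The TAGLN call was lost without DMSO replicate 1 (0.0727), DMSO replicate 2 (0.0886) or Neoribocic replicate 1 (0.195), and the CNN2 call without any 1 of the 4 (0.0754 to 0.173). SRF itself, singled out after its value was seen, was at 139 and 203 CPM in DMSO and at 274 and 223 CPM in Neoribocic, a log2 fold change of 0.54 ± 0.23 that did not pass (edgeR adjusted p = 0.0949; corrected 0.20). The value moved with the DMSO library left out, at 0.29 without DMSO replicate 1 and 0.85 without DMSO replicate 2, where it passed (0.0441), and it also passed with library totals (0.73, adjusted p = 0.0231).

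Of the 7 markers of the line, 4 fell, 1 rose and 2 did not pass, where 21.3% of all genes fell and 19.1% rose. With the correction 3 were lower and 1 higher, where 19.3% and 16.5% of all genes were. The summed level of these markers was 8720.3 and 10459.7 CPM in DMSO and 7287 and 7581 CPM in Neoribocic, lower in both treated libraries. CAV1, CD44 and ZEB1 fell by 1.42, 0.58 and 1.42 and S100A4 rose by 2.54, with corrected values of -1.10, -0.05, -0.65 and 1.7, of which those of CD44 and ZEB1 were not called. VIM, at -0.41, did not pass (edgeR adjusted p = 0.183) but was called lower with the correction (-0.80, adjusted p = 0.0201). It was not called with the correction based on longest transcripts (-0.40, edgeR adjusted p = 0.138). AXL, which is also on the target list and is named after its value was seen, fell by 0.60 (edgeR adjusted p = 0.0444; corrected -0.62), a call that was lost without DMSO replicate 2 (0.118), Neoribocic replicate 1 (0.223) or Neoribocic replicate 2 (0.133). The part of these markers in the results was not tested. The CD44 call was also lost without DMSO replicate 2 (edgeR adjusted p = 0.182), Neoribocic replicate 1 (0.146) or Neoribocic replicate 2 (0.154). Of 7 tested markers of other cells PGR was the 1 called, at no more than 1.77 CPM (edgeR adjusted p = 0.0414; corrected -0.61, not called), and lost its call without DMSO replicate 1 (0.0754), DMSO replicate 2 (0.132) or Neoribocic replicate 1 (0.231).

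Likeness of profile was measured as the root mean square difference of log2 CPM, each gene centred on its mean over the 4 libraries, among 10766 genes with a mean of at least 5 CPM. Nearest to YAP1 were SLC25A40, TTF1 and GGPS1 (differences of 0.0135, 0.0224 and 0.0226), nearest to TEAD1 were ZNF704, ATG2B and STRN (0.0188, 0.0244 and 0.0261), and nearest to CCN1 were NUTM2D, INF2 and LGMN (0.0236, 0.0279 and 0.0280). With only 4 libraries behind each profile, the measure says nothing of shared function or control.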

How the data were processed

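The authors deposited a table of unnormalized read counts for 4 libraries, with human Ensembl genes as rows. Per the labels' protocols the input was 1.4 µg total RNA and the kit selects mRNA. No aligner, counter or strand setting is given in the sources used here. The builds in the submitters' processing notes, GRCm38 and mm10, are those of the mouse. Of 20263 identifiers 19761 had a symbol. Positions, lengths and exon overlaps come from GENCODE 29. Small counts were mostly even (62.3% to 65.4% of counts of 1 to 19), so both mates of a pair may have been counted.

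Tests used edgeR 4.0.16 in R 4.3.3: filterByExpr by group, TMM, and a robust quasi-likelihood fit with group as the only term, tested with glmQLFTest. The standard error is the log2 fold change divided by the square root of F, and 95% intervals use the t quantile at the gene's total degrees of freedom. Against a split by library totals, replicates differed beyond independent counting noise in 74.6% (DMSO) and 68.6% (Neoribocic) of genes with 20 or more counts. Those totals were not scaled by TMM and include the mitochondrial counts, and both mates may have been counted. These shares therefore do not measure the spread between replicates alone. All 4 libraries were kept. The correction fitted log2 CPM (prior count 3) on length and GC content of 1 principal transcript per gene with mgcv 1.9.3 and entered the difference between libraries as an offset. Alternatives included DESeq2 1.42.0 and limma-voom (limma 3.58.1).

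The named genes are the 10, up to 3 per direction with the smallest p from each list, and the nearest profiles. The genes and lists were chosen with earlier results of these data known.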

Additional observations from a re-analysis of the deposited data

How the results depend on the processing

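Under 18 alternative settings TEAD1, CCN2 and ANKRD1 fell in each. For the 10 genes, 161 of their single-gene results kept direction and side of the threshold, 10 lost the call, 1 gained it and 8 changed sign. The sign changes were YAP1 and WWTR1 with the length and GC correction (0.21 and 0.20) or its longest-transcript form (0.13 and 0.12), and TEAD2 with both (-0.41 and -0.46) and without DMSO replicate 1 (-0.04) or Neoribocic replicate 1 (-0.05), with a range of -0.05 to 0.27 when 1 library was left out. Among other named genes LATS1 (0.10 and 0.06) and STK4 (0.54 and 0.47) turned with both forms, STK4 with library totals (0.02), LATS2 without DMSO replicate 1 (-0.01; range -0.01 to 0.36) and CNN2 with the correction (-0.0029). The count of these genes called higher was 2 with library totals, 0 with the longest-transcript form, and 0 to 1 with 1 library left out. All genes called numbered 2883 at a threshold of 0.01 and 2468 to 4536 with 1 library left out, fewest without Neoribocic replicate 1. The cause was not tested, except that fewer samples give fewer calls. The further targets called lower numbered 9 to 12 with 1 library left out.

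Upper-quartile factors and library totals moved the median log2 fold change of all genes from 0.01 to 0.13 and 0.18. Higher genes made up 47.2% of all called genes under TMM, 59.6% when only library totals were used and 56.8% under upper-quartile scaling.

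The longest-transcript correction and merged exon lengths were chosen after the data were examined. The labels do not state whether same-numbered libraries were paired. Their deviations correlated at -0.05 across genes, which cannot decide this with 2 libraries a group. With the replicate block 5594 genes were called and 3 of the 10 were lower, TEAD4 missing at an edgeR adjusted p = 0.0584. Whether spread between libraries or depth limits these results was not tested.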
